A study of Mus musculus with 6 samples.

Results

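The ezrin family and the apicobasal polarity genes were followed in the inner enamel epithelium (IEE) of the mouse mandibular first molar (MM1) with and without epithelial Kdf1. The set holds 9 of the 18152 genes in the expression table. They were chosen by name (Ezr, Msn, Rdx, Pard3, Pard6b, Prkci, Crb3, Llgl2 and Scrib), at a time when the group differences of these same libraries were already known. Their differences between the groups are therefore given as a description, without p-values. The study asked how loss of Kdf1, a gene of ectoderm-derived epithelia, changes gene expression while the molar crown takes shape.

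The RNA-seq libraries came from mice at stage E18.5 (counted in days of gestation), 3 per group. The controls were Kdf1 fl/fl mice, which carry floxed Kdf1 alleles and no Cre, although some labels call them wild type. The knockout mice (cKO) were K14-Cre;Kdf1 fl/fl, in which Cre recombinase under the keratin 14 promoter acts in keratin 14-positive epithelial cells throughout the body and not only in the tooth. Both groups thus share the floxed alleles and a C57BL/6J background, and the controls do not control for Cre itself. The IEE was cut from frozen head sections by laser capture microdissection, a method that lifts a marked piece out of a section, and a cut of this kind can take up some neighbouring cells.

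Ezrin, radixin and moesin, the products of Ezr, Rdx and Msn, form the ERM family. They tie membrane proteins to the actin cortex once they bind phosphoinositide lipids and are phosphorylated near their C-terminal end. Ezrin is the family member best known from the apical microvilli of epithelia, and moesin is prominent in endothelial cells and leukocytes. Epithelial cells set their apical side apart from their basolateral side with protein complexes that exclude each other. PAR3, PAR6 and atypical protein kinase C form the PAR complex, Crumbs proteins mark the apical membrane, and Scribble, Discs large and Lethal giant larvae proteins mark the basolateral membrane. IEE cells use this system as they elongate and polarise on the way to enamel-secreting ameloblasts.

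Library totals lay between 14713918 and 16675133 estimated counts. Kdf1 had 836, 731 and 835 counts in control replicates 1, 2 and 3 and 0, 1 and 0 counts in the cKO replicates, so the libraries matched their labels. All 9 genes passed the filter on low counts, with between 33 and 6271 counts per library. Levels are given below in TPM (transcripts scaled to an equal total in each library), which take transcript length into account and can be compared between genes. Group differences are log2 fold changes of cKO over control from an edgeR fit on counts, with a standard error (SE) derived from that fit. The SE is the absolute log2 fold change divided by the square root of the fit's F statistic.

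In the control IEE, Ezr had the highest mean level of the 9 genes, 164 ± 17.1 TPM (SD, n = 3). Prkci followed at 147 ± 4.26 TPM, and the ranges of these 2 genes overlapped. Rdx came next at 111 ± 6.44 TPM, apart from the genes on either side of it. Msn at 68.8 ± 10.8 TPM and Scrib at 54.1 ± 6.27 TPM overlapped, and Pard3 lay below both at 42.6 ± 3.59 TPM. The lowest 3 genes were Crb3 at 15.8 ± 1.65 TPM, Llgl2 at 13.97 ± 3.00 TPM and Pard6b at 3.97 ± 0.870 TPM, of which Crb3 and Llgl2 overlapped. In the cKO IEE the order at the top was another one. Msn, Rdx and Prkci led with mean levels of 110 ± 38.5, 107 ± 2.85 and 99.3 ± 11.6 TPM, with overlapping neighbours. Ezr came after them at 61.4 ± 6.38 TPM, apart from Prkci above it and Scrib below it.

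**Figure D1:**
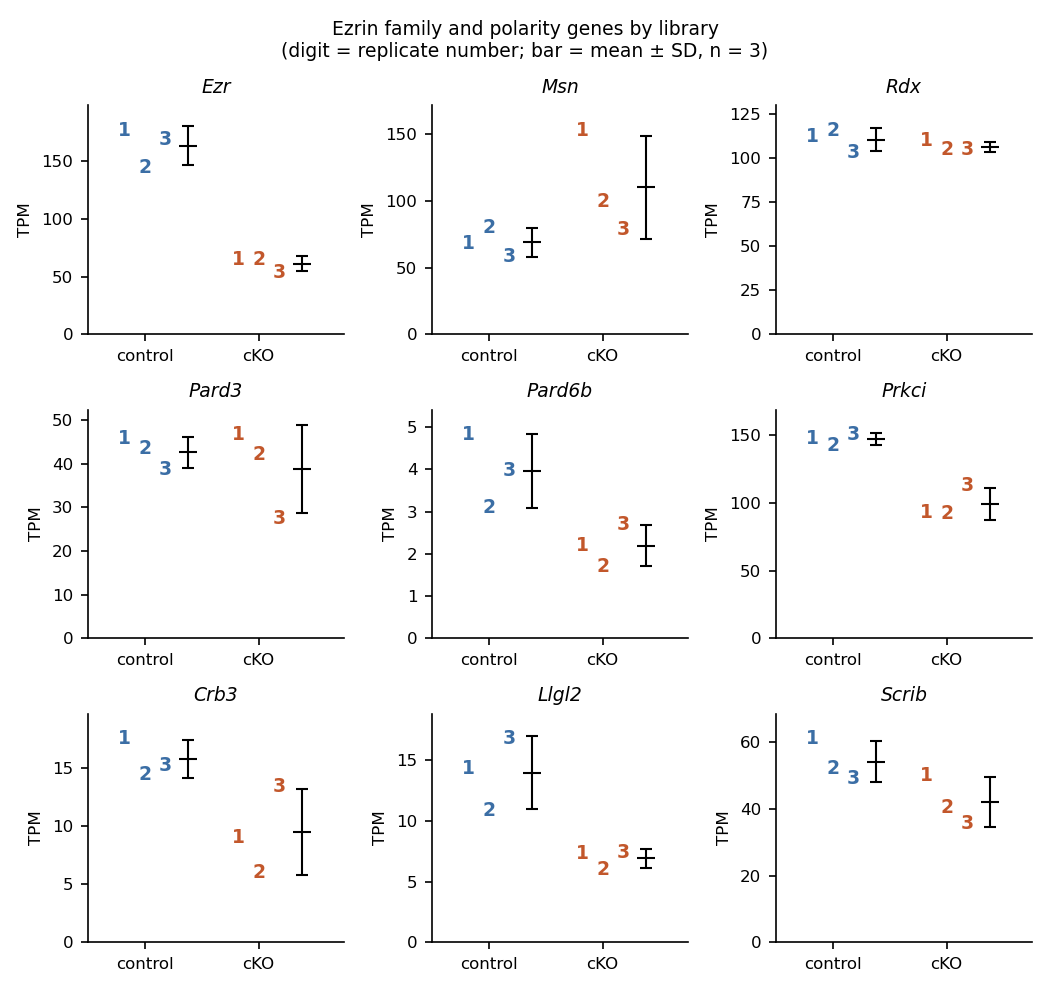
TPM (vertical axes, each starting at 0) of the 9 genes in the 3 control and 3 cKO libraries; each digit is the library with that replicate number and the black bar is the mean ± SD. Every cKO library lies below every control library for Ezr, Pard6b, Prkci, Crb3 and Llgl2, whereas the groups overlap for Msn, Rdx, Pard3 and Scrib.

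Ezr was lower in every cKO library. Its levels were 177, 144 and 169 TPM in control replicates 1, 2 and 3 and 64.9, 65.3 and 54.1 TPM in the cKO replicates. The 3 cKO values lay close together, and the highest of them was less than the lowest control value. The log2 fold change was -1.48 (SE 0.14), which left 35.8% of the control level. In a microdissected piece that can hold several cell types, fewer cells of a type and less RNA per cell cannot be told apart. This holds for each difference below.

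Msn, which encodes moesin, differed in the other direction. It had 68.0, 80.1 and 58.5 TPM in the controls and 153, 99.2 and 78.5 TPM in the cKO libraries. cKO replicate 1 stood highest, and cKO replicate 3 fell inside the control range in TPM, although all 3 cKO libraries lay above the controls in counts scaled by TMM-adjusted library size (CPM). The log2 fold change was 0.61 (SE 0.20), or 1.52 times the control level, and it was 0.38 when cKO replicate 1 was left out.

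Rdx, which encodes radixin, stayed near its control level. It had 112, 116 and 104 TPM in the controls and 110, 105 and 105 TPM in the cKO libraries, so the groups overlapped in TPM, whereas in CPM every cKO library lay below the controls. Its log2 fold change was -0.11 (SE 0.10), and the spread within groups was the smallest of the 9 genes, with an SD of 0.03 on the log2 CPM scale.

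Read as shares of the summed ERM level, a comparison added after the levels had been seen, Ezr made up 49.6%, 42.4% and 51.0% in the controls and 19.8%, 24.3% and 22.7% in the cKO libraries. The share of Msn was 19.0%, 23.5% and 17.7% in the controls and 46.7%, 36.8% and 33.0% in the cKO libraries. Neither share overlapped between the groups. The Rdx share averaged 32.3% ± 1.58 in the controls and 38.9% ± 5.37 in the cKO libraries (SD, n = 3), and overlapped. The summed ERM level was 357.5, 341 and 331 TPM in the controls and 328, 269 and 238 TPM in the cKO libraries. Ezr was thus the leading ERM gene in every control library, while Msn led in cKO replicate 1 and Rdx led in cKO replicates 2 and 3.

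**Figure D2:**
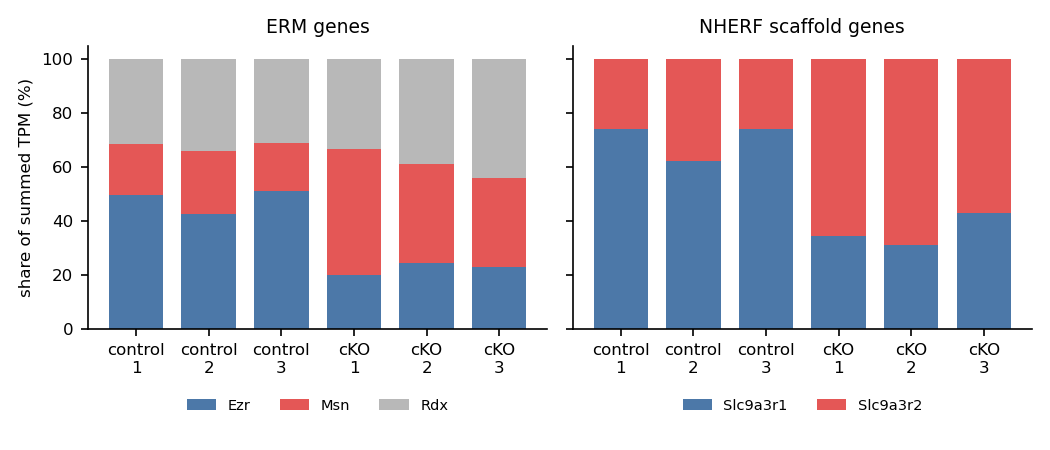
Share of the summed TPM (vertical axes, percent) held by each ERM gene (left) and by each NHERF scaffold gene (right) in each of the 6 libraries. Ezr fills between 42.4% and 51.0% of the control bars and between 19.8% and 24.3% of the cKO bars, and Slc9a3r1 fills between 62.3% and 74.0% of the control bars and between 31.0% and 42.9% of the cKO bars.

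Among the genes of the PAR complex, Prkci and Pard6b were lower in every cKO library and Pard3 was not. Prkci encodes the iota form of atypical protein kinase C. It had 148, 143 and 151 TPM in the controls and 93.3, 92.0 and 113 TPM in the cKO libraries, a log2 fold change of -0.62 (SE 0.16). Its paralogue Prkcz had 7.38, 8.14 and 13.1 TPM in the controls, so Prkci supplied between 92.0% and 96.4% of the atypical kinase level in each of the 6 libraries.

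Pard6b encodes 1 of 3 PAR6 scaffolds, which hold the kinase in the complex. It had 4.84, 3.10 and 3.97 TPM in the controls and 2.21, 1.70 and 2.69 TPM in the cKO libraries, a log2 fold change of -0.91 (SE 0.31). Pard6b was a minor PAR6 gene in this tissue, with 4.68% ± 1.00 of the summed PAR6 level in the controls and 2.84% ± 0.672 in the cKO libraries (SD, n = 3). Pard6g held most of it, between 83.5% and 92.0% in each library, and its own log2 fold change was -0.20 (SE 0.10, adjusted p = 0.246 by edgeR's quasi-likelihood test).

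Pard3, the scaffold that anchors the complex at apical junctions, had 45.7, 43.4 and 38.7 TPM in the controls and 46.8, 42.1 and 27.4 TPM in the cKO libraries. Only cKO replicate 3 lay below the control range. The log2 fold change was -0.13 (SE 0.19) with all libraries and 0.07 without cKO replicate 3.

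Crb3, which encodes the Crumbs protein found in most epithelia, was lower in every cKO library, but with a wide spread. It had 17.6, 14.4 and 15.3 TPM in the controls and 9.02, 6.03 and 13.4 TPM in the cKO libraries, with cKO replicate 3 close to the lowest control. The log2 fold change was -0.79 (SE 0.39). It ranged from -1.20 to -0.45 as single libraries were left out, with the weakest value without cKO replicate 2. Crb3 rested on 33 to 122 counts per library, the fewest of the 9 genes together with Pard6b at 48 to 140, and in CPM its groups overlapped. It supplied between 96.2% and 99.5% of the summed Crumbs level, and Crb1 and Crb2 were at or below 0.25 TPM in every library.

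On the basolateral side, Llgl2 and Scrib were followed. Llgl2, a Lethal giant larvae gene that is best known from epithelia, had 14.3, 10.8 and 16.8 TPM in the controls and 7.31, 6.03 and 7.42 TPM in the cKO libraries. The groups did not overlap, and the log2 fold change was -1.09 (SE 0.23). Its paralogue Llgl1 was the more abundant of the pair, with 68.1 TPM for both genes together in the controls, of which Llgl2 made up 20.8% ± 5.69, against 11.4% ± 3.03 in the cKO libraries (SD, n = 3). Scrib, the scaffold that gives the module its name, had 61.1, 52.1 and 49.1 TPM in the controls and 50.0, 40.5 and 35.5 TPM in the cKO libraries. cKO replicate 1 lay just inside the control range in TPM, although in CPM the groups did not overlap, and the log2 fold change was -0.43 (SE 0.13).

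**Figure D3:**
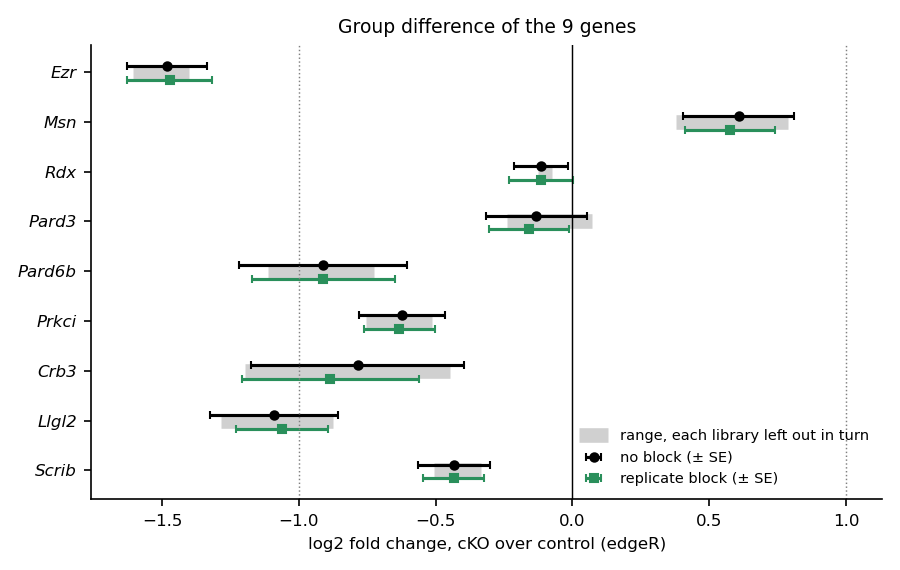
Log2 fold change of cKO over control (horizontal axis, edgeR) for the 9 genes, without a block (circles) and with the replicate number as a block (squares), each ± SE; grey bars span the values with each library left out in turn and dotted lines mark a change of 1. Msn alone lies to the right of 0, Rdx and Pard3 lie near 0 with the bar of Pard3 crossing it, and Ezr lies farthest to the left.

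A gene was called when its absolute log2 fold change was at least 1 and its adjusted p was at most 0.05. Of the 9 genes, 1 gene (Ezr) was called, and among all 14131 genes tested 0.432% were called. With an adjusted p of at most 0.05 and no limit on the fold change, it was again Ezr alone, beside 0.545% of all genes. No label pairs the libraries by replicate number. That pairing was taken from these same data, so calls with it as a block, here and below, are not independent of them. With the replicate number as a block, Ezr and Llgl2 were called beside 6.09% of all genes, and Prkci joined them at an adjusted p of at most 0.05 alone, beside 9.87%. DESeq2 called the same 2 and, without the fold limit, the same 3 genes, beside 6.94% and 12.6% of all genes. The call of Ezr was lost when control replicate 1 or 3 or cKO replicate 1 or 2 was left out, each of which left only 1 gene called in the whole table, while its log2 fold change stayed between -1.61 and -1.40. In TPM, 5 of the 9 genes were lower in every cKO library and 0 were higher, whereas 12.7% of all genes were lower and 15.4% were higher in this sense. The median log2 fold change was -0.62 over the 9 genes and 0.00 (-0.0043) over all genes tested. Since the genes were chosen with this contrast in view, nothing is read from these counts.

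Markers of the dental epithelium and of other cell types also differed between the groups. In TPM, 7 of 11 dental epithelium markers were lower in every cKO library and 0 were higher, and their summed level was 9403 to 13295 TPM in the controls and 5686 to 8591 TPM in the cKO libraries. Among them, the adhesion gene Cdh1 had a log2 fold change of -1.50, while those of the epithelial markers Epcam and Cdh3 were -0.05 and 0.26. Of 10 dental mesenchyme markers, 5 were higher in every cKO library, although their summed level, led by the collagen gene Col1a1, overlapped at 1581 to 7586 and 4214 to 5724 TPM. The 7 endothelial markers summed to 144 to 196 TPM in the controls and 185 to 570 TPM in the cKO libraries, with 3 of them higher in every cKO library. The 7 immune markers summed to 58.6 to 117 and 110 to 366 TPM, also with 3 higher in every cKO library. None of the markers in these 4 lists was at 0 in every library. Both the endothelial and the immune sums were highest in cKO replicate 1, the library with the highest Msn. The mean log2 CPM of the 10 dental mesenchyme markers was highest in that library too, although their summed TPM was not. Among the cKO libraries, the mean log2 CPM of the 11 dental epithelium markers was highest in replicate 3. On the same scale Rdx, Pard6b, Prkci, Crb3 and Llgl2 were also highest in cKO replicate 3. Ezr, Msn, Pard3 and Scrib were instead lowest in cKO replicate 3. The part of these cell types in the levels of Ezr, Msn and the other genes was not tested.

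Markers of ameloblast and odontoblast secretion also differed, and their part in the levels of the 9 genes was not tested. The 4 enamel matrix genes, among them Amelx for amelogenin, summed to 4227 to 34652 TPM in the controls and 117 to 980 TPM in the cKO libraries. Among the controls, the sum was lowest in replicate 1 and highest in replicate 3. Ezr was highest in control replicate 1 in TPM, but in control replicate 3 in log2 CPM. The 2 odontoblast matrix genes, Dspp and Dmp1, summed to 224 to 1496 TPM in the controls and 37.0 to 267 TPM in the cKO libraries, with Dspp lower in every cKO library. The 11 dental epithelium markers had a mean log2 fold change of -0.69, with a median of -0.55 and single values from -1.50 to 0.26. Measured against that mean, the difference was -0.79 for Ezr, -0.40 for Llgl2, -0.22 for Pard6b and -0.09 for Crb3, and it was 1.30 for Msn. Rdx, Pard3, Prkci and Scrib changed sign on this scale, to 0.58, 0.56, 0.07 and 0.26. For Prkci, the value was smaller than the SE of its log2 fold change (0.16).

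**Figure D4:**
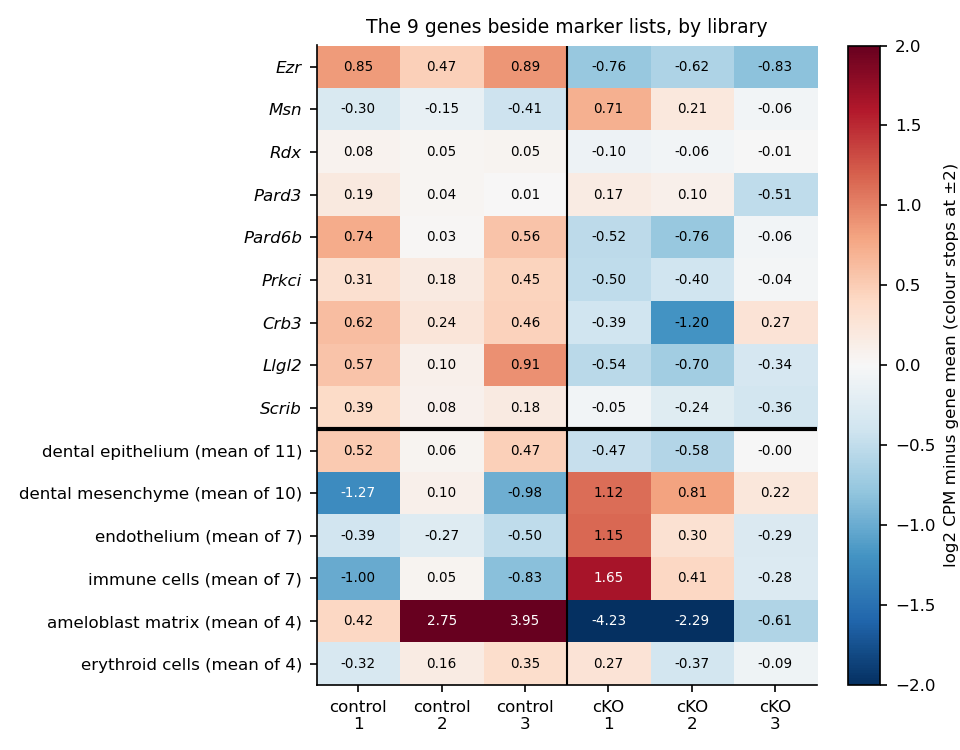
Log2 CPM in each library minus the mean over the 6 libraries (colour and printed value) for the 9 genes (above the line) and the mean of each marker list (below it). Ezr is above its mean in all controls and below it in all cKO libraries. Msn is highest in cKO replicate 1, where the dental mesenchyme, endothelial and immune lists are highest too.

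The other genes of these pathways came from 6 lists made by function, with earlier results of these libraries known, so their values are not independent of those results. Of 68 genes, 65 could be tested. By edgeR, 1 gene was lower and 0 genes were higher in the cKO, beside the 0.432% called among all genes. With the replicate block 3 were lower and 1 was higher, beside 6.09% of all genes called, and with DESeq2 2 were lower and 2 were higher, beside 6.94%. At an unadjusted p of at most 0.05 there were 17 of the 65 genes, beside 24.5% of all genes, a share against which the counts at this limit in the single lists below are also to be read. In TPM, 10 genes were lower and 6 were higher in every cKO library, beside 12.7% and 15.4% of all genes. As shares of the 65 genes, these counts lie near or below those of the table as a whole, or rest on few genes. The median log2 fold change over the 65 genes was -0.11, between the extremes -1.22 and 2.36.

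The called gene was Celsr1, an atypical cadherin of planar cell polarity, the system that orients cells within the plane of the epithelium. It had 144, 145 and 192 TPM in the controls and 74.3, 72.5 and 82.0 TPM in the cKO libraries, and the groups were far apart. The log2 fold change was -1.22 (SE 0.16, adjusted p = 0.0498 by edgeR). It was no longer called when any single library other than cKO replicate 3 was left out, and edgeR called no other gene of the 13 in this list, of which 2 had an unadjusted p of at most 0.05. Ptk7, a receptor-like pseudokinase and the most abundant gene of the list, had a log2 difference of 0.10 (SE 0.12, adjusted p = 0.654 by edgeR).

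In the list of Crumbs complex partners, 0 of 7 tested genes were called by edgeR, 4 had an unadjusted p of at most 0.05, and 1 was called with the block and by DESeq2. Wwc1, which encodes the cytoplasmic protein KIBRA, passed the limit on the adjusted p but not that on the fold change. Its levels were 43.1, 39.1 and 44.1 TPM in the controls and 20.6, 24.6 and 22.8 TPM in the cKO libraries, a log2 difference of -0.99 (SE 0.15, adjusted p = 0.0498 by edgeR). Lin7c, a PDZ scaffold and the most abundant gene of the list, had a log2 difference of -0.10 (SE 0.15, adjusted p = 0.726 by edgeR). Lin7a, named after its values were seen, was a rare paralogue at 0.21, 0.20 and 0.25 TPM in the controls and 1.49, 0.83 and 0.69 TPM in the cKO libraries. Its log2 fold change of 2.08 (SE 0.39) had an adjusted p of 0.0637 by edgeR and of 0.0292 by edgeR with the replicate block. It was called with the block, by DESeq2 without a block and in the edgeR fit without cKO replicate 3. By edgeR with all libraries and no block it was not called.

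In the list of ERM partners and regulators, 0 of 18 tested genes were called by edgeR, 6 had an unadjusted p of at most 0.05, 1 was called with the block and 2 were called by DESeq2. The median log2 fold change was 0.09. Rhoa, the small GTPase upstream of ERM phosphorylation, was the most abundant at a mean of 408 TPM, with a log2 difference of 0.06 (SE 0.11, adjusted p = 0.764 by edgeR). Cd44, a membrane receptor that binds ERM proteins, had a log2 difference of -0.27 (SE 0.19, adjusted p = 0.407 by edgeR). The NHERF scaffolds, chosen for a closer look after their values were seen, bind the ERM proteins through their C-terminal ends. Slc9a3r1 (NHERF1) had 47.7, 38.6 and 47.6 TPM in the controls and 31.5, 15.4 and 21.4 TPM in the cKO libraries. Its log2 fold change was -1.05 (SE 0.25), with an adjusted p of 0.0803 by edgeR and 0.0146 by edgeR with the replicate block. It was called with the block and by DESeq2 without a block, but not in the edgeR fit without a block. Slc9a3r2 (NHERF2) had 16.8, 23.4 and 16.7 TPM in the controls and 59.8, 34.4 and 28.5 TPM in the cKO libraries, and its log2 fold change was 0.98 (SE 0.26, adjusted p = 0.0940 by edgeR). The larger share of the NHERF level lay with Slc9a3r1 in every control library and with Slc9a3r2 in every cKO library.

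Of the 10 genes for PAR complex proteins and PAR kinases, 0 were called by edgeR, 2 had an unadjusted p of at most 0.05, and 1 was called with the block and 0 by DESeq2. Cdc42, the small GTPase that activates the complex, had a log2 difference of -0.06 (SE 0.11, adjusted p = 0.764 by edgeR), and Stk11, the kinase LKB1, had -0.16 (SE 0.10, adjusted p = 0.343 by edgeR). Prkcz, the paralogue of Prkci, was named after its values were seen. It had 3.47, 3.59 and 7.35 TPM in the cKO libraries and a log2 fold change of -1.05 (SE 0.41), with an adjusted p of 0.172 by edgeR and of 0.0155 with the replicate block, where it was called.

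None of the 9 Scribble module genes was called by edgeR, with the block or by DESeq2, and 1 had an unadjusted p of at most 0.05. Erbin, a relative of Scribble, had a log2 difference of 0.26 (SE 0.11, adjusted p = 0.216 by edgeR) and was higher in every cKO library. Dlg2, a Discs large gene, had -0.09 (SE 0.26, adjusted p = 0.860 by edgeR). None of the 8 genes of apical vesicle traffic was called in these fits either, and 2 had an unadjusted p of at most 0.05. Rab25 and Rab8a, small GTPases of recycling and apical delivery, were lower in TPM in every cKO library, but in CPM the groups of Rab25 overlapped. Their log2 fold changes were -0.71 (SE 0.27, adjusted p = 0.163 by edgeR) and -0.40 (SE 0.14, adjusted p = 0.148 by edgeR).

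**Figure D5:**
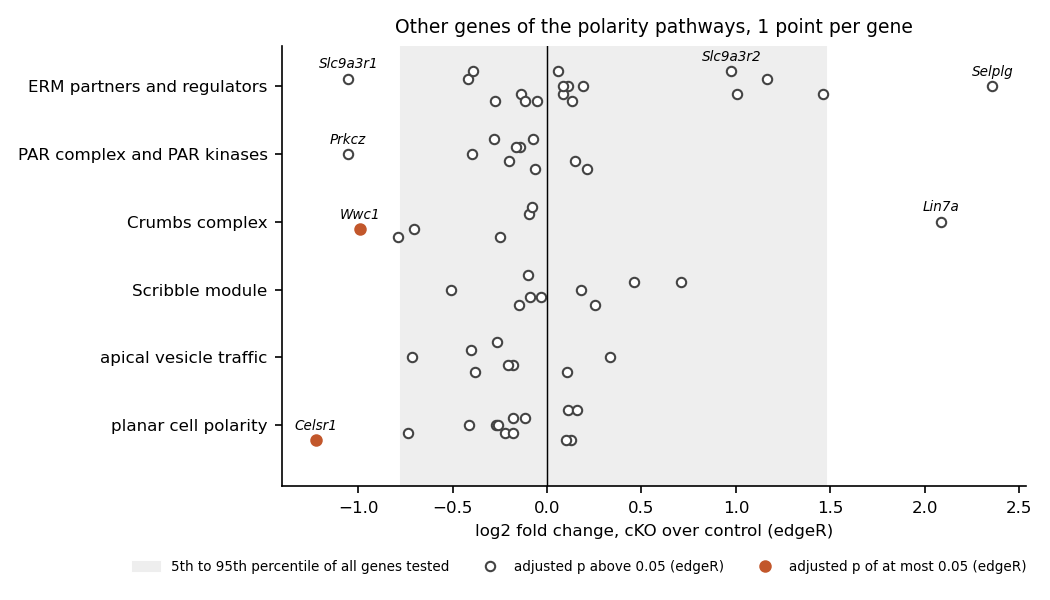
Log2 fold change of cKO over control (horizontal axis, edgeR) of the 65 tested genes of the 6 lists, 1 point per gene; filled points have an adjusted p of at most 0.05 and the grey band runs from -0.77 to 1.48, the 5th and 95th percentiles of all genes tested. The filled points are Celsr1 and Wwc1, and most other points lie inside the band.

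The genes whose pattern over the 6 libraries was most like that of an ERM gene were found by the root mean square (RMS) difference of log2 CPM after centring. For Ezr these were Tent5b, of the terminal nucleotidyltransferase family, Slc16a6, of the monocarboxylate transporter family, and Gm33887, with RMS differences of 0.060, 0.099 and 0.11. For Msn they included the cation channel gene Pkd2 and the proteoglycan gene Sdc2, at 0.063 and 0.065. For Rdx they were Necap2, Wdr43 and Prkaca, the last encoding a catalytic subunit of protein kinase A, at 0.024, 0.024 and 0.025. Among the 9 genes themselves, the nearest to Ezr was Llgl2 at 0.29 and the farthest was Msn at 1.07. Pard6b and Llgl2 were the closest pair, at 0.20.

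Promoter sequences were examined because several of the 9 genes were lower together. RefSeq promoters (build GRCm38.p6) were found for 7 of the 9 genes, with 10 promoters in all, and the 250 bases before each start site were searched. The first motif was the E-box with the letters CACCTG, read as CAGGTG on the other strand, which repressors of the Snail and ZEB families are known to bind. At least 1 copy was present in 4 of these 10 promoters, beside 17.2% of all 32851 promoters. They belong to 3 of the 7 genes, Crb3, Pard6b and Pard3. Crb3 had 2 start sites close together whose windows overlap and hold the same 3 copies, with first bases at -118, -63 and -7 from the first start site and at -148, -93 and -37 from the other. At least 3 copies were present in 0.247% of all promoters. The Pard6b promoter held 2 copies, at -141 and -86, and at least 2 copies were present in 2.06% of all promoters. The second start site of Pard3 had 3 copies and the first had none. No copy was found in this window for Ezr, Msn, Rdx or Prkci. The Grainyhead-like motif AACCGGTT was in none of the 10 and in 0.116% of all promoters. Crb3, Pard6b and Ezr are shown, the first 2 for their repeated E-boxes and Ezr as the gene with the lowest log2 fold change of the 9 and no copy, with E-boxes in capitals and each sequence ending at the base before the start site. They lie upstream of their genes, Crb3 at chr17:57061951-57062200 on the plus strand, Pard6b at chr2:168080754-168081003 on the plus strand and Ezr at chr17:6782781-6783030 on the minus strand.
Crb3: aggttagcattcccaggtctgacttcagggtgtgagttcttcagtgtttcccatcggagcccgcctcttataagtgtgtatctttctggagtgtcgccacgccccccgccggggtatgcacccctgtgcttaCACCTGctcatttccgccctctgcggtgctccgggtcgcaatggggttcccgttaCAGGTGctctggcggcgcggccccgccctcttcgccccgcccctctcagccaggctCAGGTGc
Pard6b: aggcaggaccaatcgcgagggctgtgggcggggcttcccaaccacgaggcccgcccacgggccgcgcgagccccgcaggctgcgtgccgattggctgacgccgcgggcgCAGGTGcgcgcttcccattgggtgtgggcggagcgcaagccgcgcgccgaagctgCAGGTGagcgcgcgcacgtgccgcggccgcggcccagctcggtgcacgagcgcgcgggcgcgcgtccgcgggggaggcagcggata
Ezr: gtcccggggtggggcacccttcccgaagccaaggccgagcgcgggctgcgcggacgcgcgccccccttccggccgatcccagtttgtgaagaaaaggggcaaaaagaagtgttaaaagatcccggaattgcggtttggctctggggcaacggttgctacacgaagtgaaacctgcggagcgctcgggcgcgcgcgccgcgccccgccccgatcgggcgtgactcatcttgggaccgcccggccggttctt
In the cKO libraries, the genes with a copy stood at 58.0% (Crb3), 53.2% (Pard6b) and 91.3% (Pard3) of the control level. Those without a copy in the window stood at 35.8% (Ezr), 64.9% (Prkci), 92.3% (Rdx) and 152% (Msn). A part of these motifs in the levels was not tested. A match of letters is a description of the sequence, and binding was not measured.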

How the data were processed

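RNA-seq was performed on IEE from 3 control and 3 cKO mice. Per the labels, the authors' processing tools included BWA 0.7.12, Picard 2.6.0 and StringTie, with no roles given. The genome build is not given in the sources used here. The authors deposited estimated counts per gene, which need not be whole (10.9% to 11.5% of the values per library were not), and deposited TPM values, scaled by transcript length to an equal total per library. FPKM values and group averages were not used. The 9 members and all gene lists were chosen with earlier results of these data known.

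Estimated counts were rounded. In R 4.3.3, edgeR 4.0.16 was run with filterByExpr (14131 of 18152 genes kept), TMM factors of 0.950 to 1.03, robust quasi-likelihood F-tests (two-sided) and Benjamini-Hochberg adjustment over all genes tested. The thresholds were those of the study, which names no test. A count of 0 allows up to 3 counts, at most 0.198 CPM, for counting error only. Libraries of a group differed by at least 35.4 times the sampling variance, so none was a duplicate. Same-numbered libraries deviated together from their group means (r = 0.135, 0.324 and 0.499 across genes), although control replicate 2 and cKO replicate 1 also did (r = 0.144), and the numbers were therefore taken to pair them, on the data alone. Alternatives were the replicate block, DESeq2 1.42.0, other scalings and filters, limma 3.58.1 on log2(TPM + 1) and log2(TPM + 0.1), and each library left out. The procedure was also run on simulated counts with a spread common to all genes and no pairing of replicates. That run does not cover how the calls vary between settings in these libraries. Genes named were the 9 members, from each list the genes called (at most 4) and the 2 with the highest mean TPM, Kdf1, marker genes where a list needed them, and the 3 nearest patterns of each ERM gene, of which 1 is not reported here. Others are said to have been named after their values were seen. Protein sequences were not analysed here.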

Additional observations from a re-analysis of the deposited data

How the results depend on the processing

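Of 135 values of the 9 genes under 15 other settings each, 131 moved by less than 1 SD within groups, 4 by more, and 1 changed sign (Pard3 without cKO replicate 3). The scale relative to the dental epithelium markers is not among these 15 settings. On it, the markers' mean log2 fold change of -0.69 is subtracted from every gene, so all 9 values shift by the same amount. That shift is larger than the SD within groups of each gene, and 4 genes changed sign. It is a change of reference and not a new fit, so it does not test how stable the values are. The count of called members was 1 with DESeq2's size factors, upper quartile scaling, library size alone, either count filter, both TPM fits and the adjusted p alone. It was 2 with DESeq2 and with the replicate block, and 0 to 1 as single libraries were left out. With no fold limit, in settings chosen after seeing the data, it was 3 with the block and 3 with DESeq2. Of all genes, 9.87% and 12.6% were called in those 2 settings. The count of called pathway genes, 1, stayed 1 with upper quartile scaling and both TPM fits. It was 4 with DESeq2 and with the replicate block, 2 without the low-count filter and with the adjusted p alone, and 0 with DESeq2's size factors, with library size alone and with at least 10 counts in every library. It was 0 to 4 as single libraries were left out, with 4 without cKO replicate 3. With no fold limit, in settings chosen after seeing the data, it was 8 with the block and 11 with DESeq2. These counts of the 65 tested genes stand beside the same 9.87% and 12.6% of all genes. The cause of these changes was not tested. Over all genes, 61 were called by edgeR, 980 by DESeq2, 860 with the block, 7 with DESeq2's size factors, 9 with library size alone, 103 without the filter, 6 with at least 10 counts in every library and 31 with log2(TPM + 1). As single libraries were left out, it was 1 to 465. The p-values set each group difference against a spread estimated from 3 libraries per group, and Crb3 and Pard6b rest on few counts.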
